A study of Mus musculus with 6 samples.

Results

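The genes described here are 10 members of the hypoxia response: the hypoxia-inducible factor (HIF) alpha subunits Hif1a and Epas1, the prolyl hydroxylases Egln1 and Egln3, and the HIF or stress targets Ddit4, Hilpda, Bnip3, Adm, Ndrg1 and Ankrd37. They were taken by symbol from the 22180 genes that at least 1 probe set of the array names alone, each gene at its brightest probe set by the mean over all arrays. Of the 10 genes, 9 had such a probe set. Ankrd37 had only a probe set that it shares with Lrp2bp, so it has no value of its own. Adm was dim, with a mean under the log2 limit of 5.07 (the 40th percentile of all genes), which left 8 members among the 13308 genes tested.

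The diabetic group held 3 arrays and the nondiabetic group held 3, all of endothelial cells sorted from the marrow of male C57BL/6J mice, 5000 cells a sample. Diabetes was induced by a high fat diet of 60 kcal% fat eaten for 4 months. This diet is written on the nondiabetic samples as well, so the food of those mice is not known from the labels, which also give no age and no word on pooling. The labels are silent on whether each array is a different mouse, so the p-values reflect the spread between samples, which may be technical.

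Cells sense oxygen through the hydroxylases encoded by Egln1 and Egln3, which use oxygen to mark HIF alpha proteins so that the von Hippel-Lindau ligase sends them for destruction. When oxygen is short the alpha subunits persist, pair with ARNT and bind short ACGTG or GCGTG sequences near their target genes. Bone marrow is a tissue of low oxygen, and Epas1, the HIF-2 alpha gene, is known as the alpha subunit typical of endothelium. Since HIF alpha proteins are controlled mainly by their stability, transcript levels of Hif1a and Epas1 do not measure HIF activity.

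The promoter windows of Ddit4 and Hilpda, the members whose groups did not overlap, and of Egln3, the member with the widest spread, are shown to place these binding letters. Each runs from 250 bases before to 50 bases after the gene start, 5′ to 3′, from the RefSeq table of build GRCm38.p6. Capitals mark ACGTG or GCGTG on either strand.
Ddit4: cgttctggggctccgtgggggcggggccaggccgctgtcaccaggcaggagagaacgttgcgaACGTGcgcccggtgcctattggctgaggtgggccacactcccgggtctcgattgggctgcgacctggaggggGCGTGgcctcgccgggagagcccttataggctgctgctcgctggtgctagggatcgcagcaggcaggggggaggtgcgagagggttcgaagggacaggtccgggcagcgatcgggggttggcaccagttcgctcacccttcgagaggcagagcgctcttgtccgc
Hilpda: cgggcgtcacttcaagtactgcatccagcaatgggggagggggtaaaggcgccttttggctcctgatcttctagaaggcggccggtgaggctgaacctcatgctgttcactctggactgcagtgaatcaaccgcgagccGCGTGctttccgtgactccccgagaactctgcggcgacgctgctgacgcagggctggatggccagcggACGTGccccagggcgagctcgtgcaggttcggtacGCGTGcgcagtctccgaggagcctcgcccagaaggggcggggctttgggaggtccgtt
Egln3: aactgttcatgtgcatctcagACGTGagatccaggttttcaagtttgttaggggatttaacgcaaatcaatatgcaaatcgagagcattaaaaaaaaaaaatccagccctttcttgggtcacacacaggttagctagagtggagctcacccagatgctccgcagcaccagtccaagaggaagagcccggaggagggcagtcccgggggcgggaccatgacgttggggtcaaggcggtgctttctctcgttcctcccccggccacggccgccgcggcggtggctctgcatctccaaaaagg
The Ddit4 window is chr10:59951721-59952020 on the minus strand, the Hilpda window chr6:29272376-29272675 on the plus strand and the Egln3 window chr12:54203825-54204124 on the minus strand. Ddit4 held 1 ACGTG, starting 187 bases before the gene start, and 1 GCGTG. The Hilpda window held 1 ACGTG, 43 bases before the start, and 2 GCGTG, while a second, upstream Hilpda window that overlaps it held 1 GCGTG and 0 ACGTG. Egln3 held 1 ACGTG, 229 bases before the start. Of the members, 8 had a window in the table; all 8 held one or the other sequence, and 7 held ACGTG, every one but Adm. Among all 32841 windows of that length, 43.8% held ACGTG or GCGTG on either strand and 19.6% held ACGTG. The E-box CACGTG, bound by MYC and clock factors, contains this sequence and was in 7.15% of windows; among the members Hif1a and Bnip3 each held 1 copy. These matches describe the letters and show no binding.

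The sorts carried endothelial transcripts throughout: all 20 genes of a pan-endothelial marker list lay above the dim limit on average. The pan-endothelial mean per array was 8.89 to 9.54 in the diabetic group and 8.97 to 9.40 in the nondiabetic group, with diabetic replicate 1 the highest of all. The sinusoidal list of 12 tested genes was 8.15 to 8.81 in diabetic and 7.66 to 7.84 in nondiabetic arrays, and the arteriolar list of 12 was 7.70 to 8.28 and 8.08 to 8.56. The monocyte and macrophage list of 11 tested genes averaged 7.69 to 7.90 in diabetic and 7.19 to 7.62 in nondiabetic arrays, and the neutrophil list of 9 averaged 7.75 to 7.92 and 7.29 to 7.58, and the B and plasma cell list of 9 averaged 6.97 to 7.57 and 6.59 to 6.82, so the sinusoidal list and these 3 blood cell lists lay higher in every diabetic array. The summed level of the sinusoidal list did not overlap either, at a log2 sum of 12.25 to 12.90 in diabetic and 11.86 to 12.05 in nondiabetic arrays, whereas those of the 3 blood cell lists overlapped between the groups, for the monocyte list at a log2 sum of 11.94 to 12.28 in diabetic and 11.40 to 12.02 in nondiabetic arrays. The megakaryocyte and platelet list of 7 averaged 8.45 to 9.38 in diabetic and 8.20 to 9.19 in nondiabetic arrays. It was highest in replicate 3 of each group. There it lay above the pan-endothelial mean, at 9.38 against 8.92 in the diabetic array and 9.19 against 8.97 in the nondiabetic one. In the other arrays it lay below that mean. The part of any of these cell types in the members' values was not tested. The first principal component, with 27.3% of the variance, placed diabetic replicates 1 and 3 at opposite ends.

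None of the 8 tested members passed the test for a difference between diabetic and nondiabetic cells. Hilpda, which coats lipid droplets and inhibits the lipase ATGL, lay higher in every diabetic array, and Ddit4 (also called REDD1), a stress-induced inhibitor of mTOR, lay lower in every diabetic array. The other members overlapped between the groups, among them both HIF alpha genes and both hydroxylases. By limma over all 13308 genes, 0.00751% of genes were called at an adjusted p under 0.05 (1 gene, Rabggtb, lower), and the members' adjusted p-values were 0.997 or more. At an unadjusted p under 0.05 there was 1 member higher and 1 lower of 8, where 3.19% of all tested genes were higher and 1.07% lower. The groups did not overlap for 5.28% of tested genes in the higher direction and 2.67% in the lower. Of the 8 members 4 had higher and 4 had lower values, with a median log2 difference of -0.04, beside 0.02 over all tested genes.

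**Figure D1:**
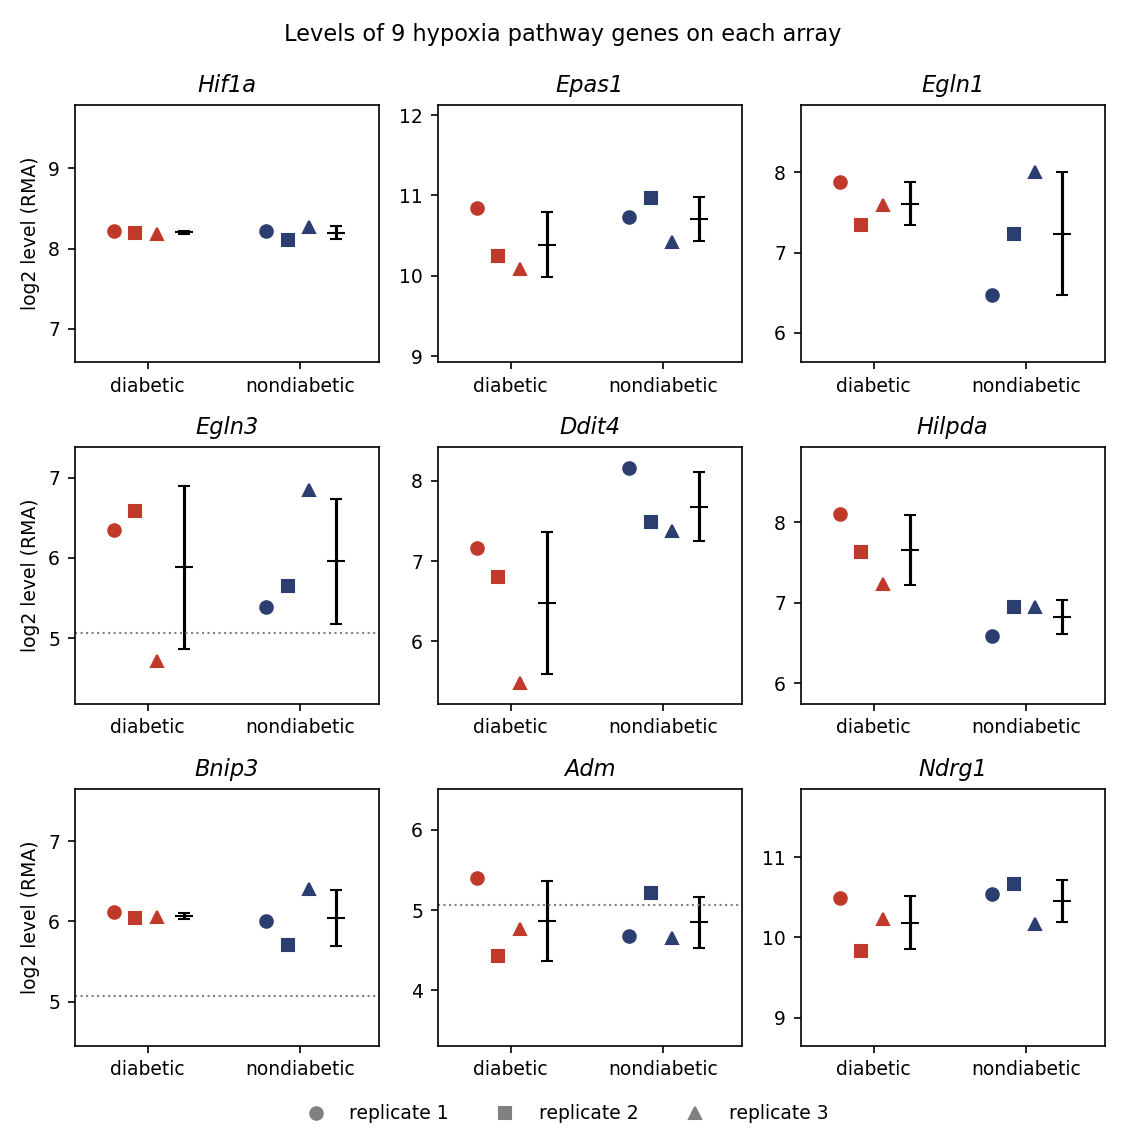
Log2 level on each of the 6 arrays for the 9 members with a probe set of their own; symbols are replicates, the black bar is the mean ± SD (n = 3 a group), the dotted line is the dim limit of 5.07, and every panel spans the same log2 range. The groups separate for Ddit4 and Hilpda and overlap for the others. Epas1, Egln3 and Ddit4 have their lowest value of the 6 arrays in diabetic replicate 3.

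Hif1a, which encodes HIF-1 alpha, was the steadiest member. It stood at 8.22, 8.20 and 8.19 in diabetic replicates 1 to 3, against 8.22, 8.11 and 8.27 in the nondiabetic replicates. The groups coincided, at 8.20 ± 0.02 in diabetic and 8.20 ± 0.08 in nondiabetic cells (SD, n = 3 each), and 99.4% of tested genes had a larger SD among the diabetic arrays. The log2 difference was 0.0025 (SE 0.14), with a 95% interval of -0.32 to 0.33, or 0.801-fold to 1.25-fold. A dimmer probe set that names Hif1a alone gave 6.14 ± 0.18 in diabetic and 6.16 ± 0.23 in nondiabetic cells, a difference of -0.02 (SE 0.18). A further one, shared with the pseudogene S100a11-ps, gave -0.09.

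Epas1, which encodes HIF-2 alpha, stood at 10.84, 10.24 and 10.08 in the diabetic replicates, against 10.74, 10.97 and 10.43 in the nondiabetic ones. Diabetic replicate 1 lay among the nondiabetic arrays and diabetic replicates 2 and 3 below all of them. The means were 10.39 ± 0.40 in diabetic and 10.71 ± 0.27 in nondiabetic cells (SD, n = 3 each). The log2 difference was -0.32 (SE 0.24) with a 95% interval of -0.87 to 0.23. Diabetic replicate 1 was also the array with the highest pan-endothelial mean; without it the difference was -0.55, and without diabetic replicate 3 it was -0.17, both with a limma adjusted p of 0.891 or more. Epas1 was lower by 0.24 (SE 0.14) in a fit with the pan-endothelial mean as a covariate, an alternative added after seeing the data.

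Egln1 encodes PHD2, the main oxygen sensor of the pathway and itself a HIF target. Its levels were 7.88, 7.35 and 7.59 in the diabetic replicates, against 6.47, 7.23 and 8.01 in the nondiabetic ones. The nondiabetic arrays spread over 1.54 log2 units and enclosed the diabetic ones, and 2.04% of tested genes had a larger nondiabetic SD. The difference was 0.37 (SE 0.36) with a 95% interval of -0.45 to 1.20, and it was -0.01 without nondiabetic replicate 1 and 0.76 without nondiabetic replicate 3.

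Egln3 encodes PHD3, a hydroxylase that HIF strongly induces. It stood at 6.35, 6.59 and 4.72 in the diabetic replicates, against 5.39, 5.65 and 6.85 in the nondiabetic ones. The value of diabetic replicate 3 lay under the dim limit, in the range where signal and background are hard to separate. Egln3 had the widest spread of the members in both groups, with an SD of 1.02 in diabetic and 0.78 in nondiabetic arrays, and 0.451% of tested genes had a larger diabetic SD. The difference was -0.08 (SE 0.54), and its 95% interval of -1.32 to 1.16 left more than a doubling or a halving within its bounds. Without diabetic replicate 3 it was 0.51 (SE 0.41).

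Ddit4 had log2 levels of 7.16, 6.80 and 5.48 in diabetic replicates 1, 2 and 3, against 8.16, 7.49 and 7.37 in the nondiabetic replicates. Every diabetic array lay below every nondiabetic array, and diabetic replicate 3 was far below the other diabetic arrays. The means were 6.48 ± 0.88 in diabetic and 7.67 ± 0.43 in nondiabetic cells (SD, n = 3 each). The log2 difference was -1.19 (SE 0.42), 0.437 times the nondiabetic level, with a 95% interval of -2.17 to -0.22. It ranked 243 of 13308 by p (unadjusted p = 0.0219, limma adjusted p = 0.997), and 0.218% of tested genes had a larger absolute difference. The spread of Ddit4 was wide too: 0.872% of tested genes had a larger diabetic SD and 13.1% a larger nondiabetic SD. The exact permutation test, two-sided, gave p = 0.1, the smallest that 3 arrays against 3 allow. Without diabetic replicate 3 the difference was -0.70 (SE 0.28), a smaller value with a smaller error, and with any other array left out it was -1.53 to -0.95. In bulk sorts like these, fewer cells of a type that carries a transcript and less of it per cell cannot be told apart. The arteriolar marker genes were lower in diabetic cells as well, 12 of 12 tested with a median log2 difference of -0.37, and 3 of them did not overlap between the groups, where 2.67% of all tested genes did so in that direction; none passed the limma test. The mean of this list had the same order as Ddit4 among the diabetic arrays, at 8.28, 7.79 and 7.70 in replicates 1 to 3, against 8.29, 8.56 and 8.08 in the nondiabetic replicates, where replicate 2 was highest for the list and replicate 1 for Ddit4. The range of the arteriolar mean overlapped between the groups, and the part of arteriolar cells in the Ddit4 difference was not tested. The sinusoidal list also had the diabetic order of Ddit4, at 8.81, 8.24 and 8.15 in replicates 1 to 3, but lay higher in diabetic arrays, where Ddit4 lay lower. The megakaryocyte and platelet list was highest in replicate 3 of each group (9.38 and 9.19), where Ddit4 was lowest. A peak in diabetic replicate 1 was common, with 49.9% of all tested genes highest there.

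Hilpda had log2 levels of 8.10, 7.63 and 7.24 in diabetic replicates 1, 2 and 3, against 6.58, 6.94 and 6.95 in the nondiabetic replicates. Every diabetic array lay above every nondiabetic array, with diabetic replicate 3 the nearest to them. The means were 7.66 ± 0.43 in diabetic and 6.82 ± 0.21 in nondiabetic cells (SD, n = 3 each). The log2 difference was 0.83 (SE 0.24), or 1.78-fold, with a 95% interval of 1.22-fold to 2.60-fold. It ranked 95 of 13308 by p (unadjusted p = 0.00807, limma adjusted p = 0.997; exact permutation p = 0.1), and 0.939% of tested genes had a larger absolute difference. Leaving out single arrays gave 0.61 (without diabetic replicate 1) to 1.04 (without diabetic replicate 3). Since the groups did not overlap, leaving out an array could change the size of the difference but not its sign. Hilpda and the sinusoidal marker list had the same order among the diabetic arrays, highest in replicate 1 and lowest in replicate 3. Ddit4 and the arteriolar list shared this diabetic order. Among the nondiabetic arrays replicate 1 was highest for the sinusoidal list and lowest for Hilpda. The part of sinusoidal cells in the Hilpda difference was not tested.

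**Figure D2:**
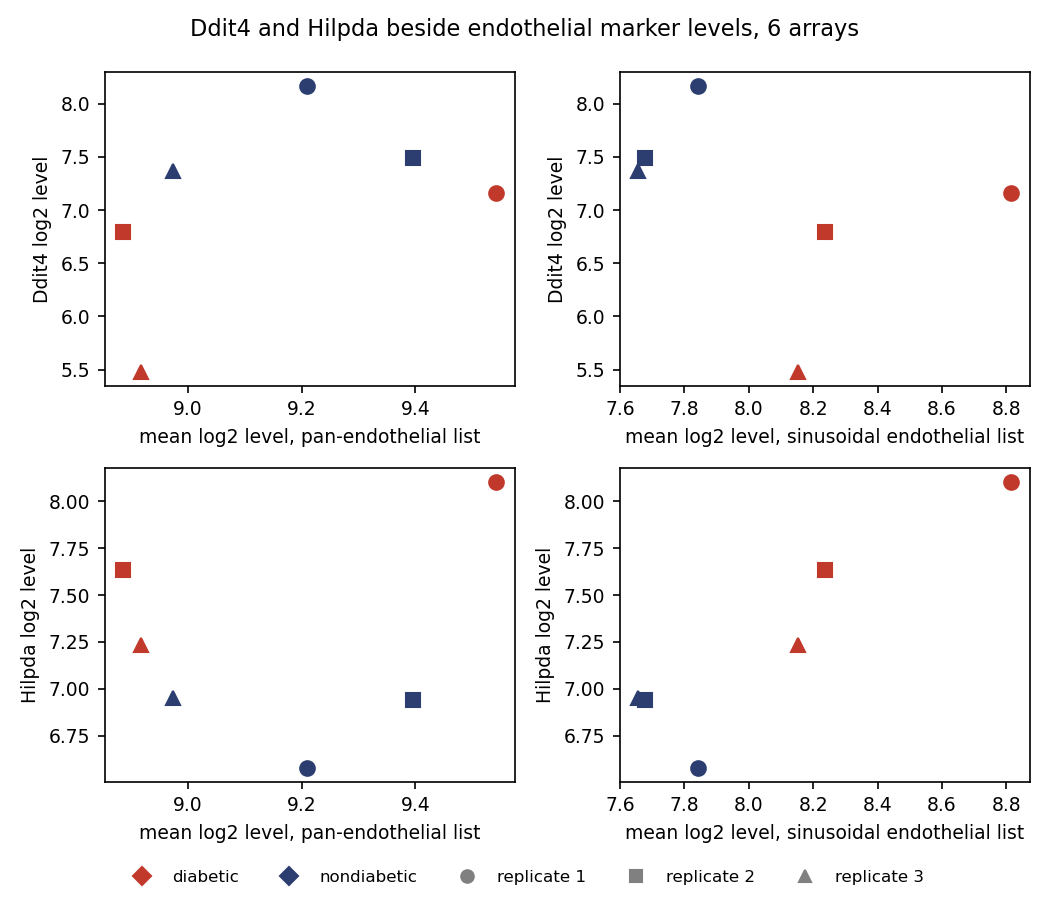
Log2 level of Ddit4 (top) and Hilpda (bottom) on the 6 arrays, plotted against the mean log2 level of the pan-endothelial (left) and sinusoidal (right) marker lists; colour is the group and symbol the replicate. The 3 diabetic arrays lie to the right in both sinusoidal panels. Among them Hilpda and Ddit4 both follow the order of that list, highest in replicate 1 and lowest in replicate 3.

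Ddit4 and Hilpda lay in opposite directions between the groups but in the same order within the diabetic group, highest in replicate 1 and lowest in replicate 3. In the nondiabetic group their orders were opposite, with replicate 1 highest for Ddit4 and lowest for Hilpda. Of the 9 measured members, 8 had their highest diabetic value in replicate 1, all but Egln3, while 49.9% of all tested genes did so. For 5 members the lowest diabetic value was in replicate 3, as for 41.1% of tested genes.

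Bnip3, a mitochondrial outer membrane protein that starts mitophagy, stood at 6.11, 6.04 and 6.05 in the diabetic replicates, against 6.01, 5.70 and 6.40 in the nondiabetic ones. The diabetic arrays lay within the nondiabetic range. The difference was 0.03 (SE 0.20) with a 95% interval of -0.42 to 0.49. In the nondiabetic group Bnip3 and Hif1a were both lowest in replicate 2 and highest in replicate 3.

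Ndrg1, a stress-responsive protein of growth arrest and vesicle traffic, stood at 10.48, 9.83 and 10.23 in the diabetic replicates, against 10.54, 10.67 and 10.16 in the nondiabetic ones. Diabetic replicate 2 was the lowest array, and the groups overlapped. The difference was -0.27 (SE 0.22) with a 95% interval of -0.78 to 0.23, and it shrank to -0.10 when diabetic replicate 2 was left out and to -0.17 when nondiabetic replicate 2 was. The second probe set that names Ndrg1 alone pointed the other way, at 8.76 ± 0.42 in diabetic and 8.63 ± 0.30 in nondiabetic cells, differing by 0.13 (SE 0.25), and no direction was shared between them.

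Adm encodes adrenomedullin, a secreted peptide that relaxes vessels and tightens the endothelial barrier. It stood at 5.40, 4.42 and 4.77 in the diabetic replicates, against 4.68, 5.21 and 4.65 in the nondiabetic ones. A single array in each group exceeded the dim limit of 5.07, and Adm was not tested. The group means were 4.86 ± 0.50 in diabetic and 4.85 ± 0.31 in nondiabetic cells (SD, n = 3 each). The probe set that names both Lrp2bp and Ankrd37 averaged 5.98 ± 0.31 over the diabetic arrays and 5.95 ± 0.16 over the nondiabetic arrays, overlapped between the groups, and cannot be assigned to Ankrd37.

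**Figure D3:**
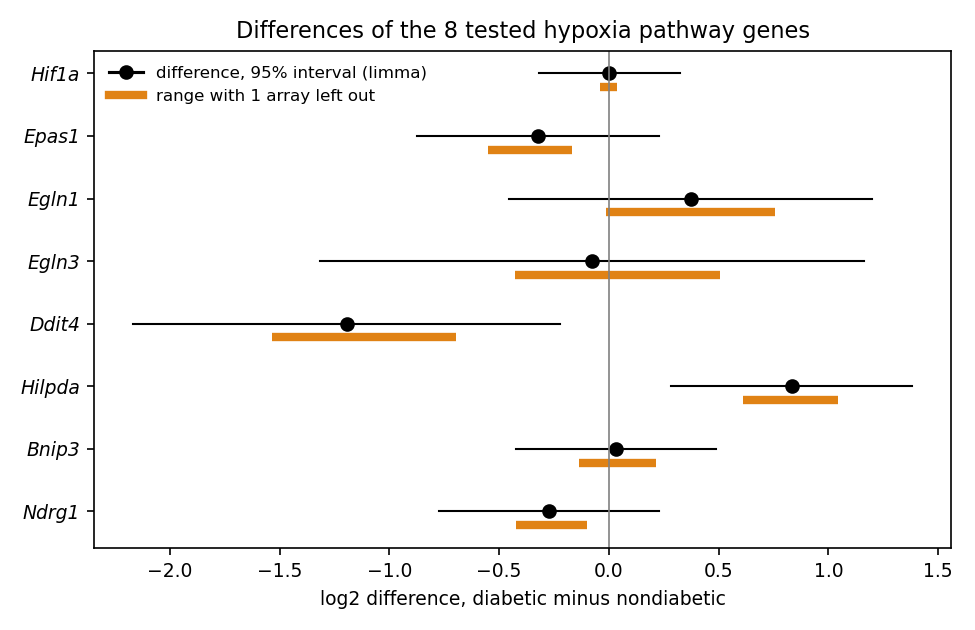
Log2 difference, diabetic minus nondiabetic, for the 8 tested members, with the unadjusted 95% interval of the limma fit (black) and the range of the difference when each of the 6 arrays is left out (orange). The intervals of Ddit4 (-2.17 to -0.22) and Hilpda (0.28 to 1.38) lie to opposite sides of 0 and the other 6 include it.

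The rest of the oxygen-sensing machinery lay on both sides of 0. Of 18 listed genes 15 were tested, 7 higher and 8 lower in diabetic cells, with a median log2 difference of -0.01 beside 0.02 over all tested genes, and 0 passed the limma test (1 lower at an unadjusted p under 0.05, beside 1.07% of all tested genes). Siah1a, a ubiquitin ligase that targets prolyl hydroxylases for degradation, stood at 8.66 ± 0.28 in diabetic and 9.12 ± 0.20 in nondiabetic cells (SD, n = 3 each), which did not overlap and differed by -0.47 (SE 0.19). Os9, a lectin of endoplasmic reticulum quality control, differed by 0.34 (SE 0.20).

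Other known HIF targets were examined beside the members. Of 60 listed genes 51 were tested, of which 34 had higher and 17 lower values, with a median of 0.07, and 0 passed the limma test. At an unadjusted p under 0.05 there was 1 of 51, higher, where 3.19% of all tested genes were: Angptl4, an inhibitor of lipoprotein lipase that PPAR factors also induce. Angptl4 stood at 6.87, 6.75 and 6.14 in the diabetic replicates, against 5.88, 5.54 and 6.05 in the nondiabetic ones, with no overlap and a difference of 0.76 (SE 0.23). Plin2, a lipid droplet coat protein, stood at 8.23, 7.64 and 7.19 in the diabetic replicates, against 7.16, 7.16 and 7.25 in the nondiabetic ones, with overlap and a difference of 0.50 (SE 0.25). For Hilpda, Angptl4 and Plin2 alike, diabetic replicate 1 was the highest and diabetic replicate 3 the lowest of the diabetic arrays. This order is not particular to them: Ddit4 had it too. Of all tested genes 49.9% were highest in diabetic replicate 1 and 41.1% lowest in diabetic replicate 3. Of the list tied to HIF-2 and vessels, 14 genes were tested, 8 higher and 6 lower, with a median of 0.05; Arg1, the urea cycle arginase, differed by 0.28 (SE 0.17) and Esm1, a proteoglycan of endothelial tip cells, by -0.33 (SE 0.22).

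Around Ddit4, 18 genes of the mTOR and TSC pathway were tested, 13 higher and 5 lower, with a median of 0.07. At an unadjusted p under 0.05 there were 2 of 18, both higher, where 3.19% of all tested genes were: Rheb, the GTPase that activates mTOR complex 1 and that TSC holds in check, at 8.09 ± 0.24 in diabetic and 7.55 ± 0.20 in nondiabetic cells (SD, n = 3 each), and Mlst8, a subunit of both mTOR complexes. The groups did not overlap for either, as for 5.28% of all tested genes in that direction, and the differences were 0.54 (SE 0.19) and 0.35 (SE 0.15), with a limma adjusted p of 0.997 for both.

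Cell stress and glucocorticoids are known to induce Ddit4 as well, and lists of genes tied to each were examined beside it. These lists hold regulators as well as targets, among them the kinase gene Eif2ak3 and the glucocorticoid receptor gene Nr3c1. Of 19 tested genes of the integrated stress response, the arm led by ATF4, 13 were higher and 6 lower, with a median of 0.13. Nupr1, a stress-induced chromatin protein, stood at 7.47 ± 0.19 in diabetic and 7.01 ± 0.04 in nondiabetic cells (SD, n = 3 each), which differed by 0.46 (SE 0.16), and the kinase gene Eif2ak3 (PERK) differed by 0.44 (SE 0.17). Of 19 tested genes on the glucocorticoid list 12 were higher and 7 lower, with a median of 0.13. The genes of smallest p were Bcl6, a transcriptional repressor, with 0.43 (SE 0.17), and Lcn2, an iron-scavenging protein that neutrophils also carry, with 0.58 (SE 0.25); the neutrophil list lay higher in the same arrays and its part was not tested. None of these genes passed the limma test, and 2 of the 19 in each list were higher at an unadjusted p under 0.05, beside 3.19% of all tested genes.

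Around Hilpda, 14 genes of lipid droplets and lipolysis were tested, 8 higher and 6 lower, with a median of 0.01 and 0 at an unadjusted p under 0.05. Beside Plin2, the smallest p was that of Dgat1, which makes triglyceride, at 9.04 ± 0.35 in diabetic and 8.47 ± 0.57 in nondiabetic cells (SD, n = 3 each), overlapping and 0.57 apart (SE 0.30). Around Bnip3, 17 mitophagy genes were tested, 9 higher and 8 lower, with a median of 0.06, and at an unadjusted p under 0.05 there were 1 higher (Rheb) and 1 lower of 17, beside 3.19% and 1.07% of all tested genes. The lower one was Atg5, needed to build autophagosomes, below every nondiabetic array in all 3 diabetic arrays, at 6.00 ± 0.43 in diabetic and 6.64 ± 0.15 in nondiabetic cells, a difference of -0.64 (SE 0.23). Of 9 tested receptors and processing genes of adrenomedullin 3 were higher and 6 lower, with a median of -0.08; Ramp1, a receptor partner, differed by 0.25 (SE 0.14) and Calcb, a related peptide, by -0.41 (SE 0.34). Of 7 genes around Ndrg1, 5 were higher and 2 lower, with a median of 0.02; Myc, whose product represses Ndrg1, differed by 0.47 (SE 0.20) and the kinase gene Gsk3b by -0.17 (SE 0.18). Taken once each, 175 genes of all these lists were tested, 106 higher and 69 lower. Over all tested genes 7185 were higher and 6123 lower, or 54.0% higher. At an unadjusted p under 0.05, 8 of the 175 were higher and 2 lower, beside 3.19% and 1.07% of all tested genes. The groups did not overlap for 14 higher and 3 lower, beside 5.28% and 2.67%. The lists were chosen with earlier results of these data known.

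**Figure D4:**
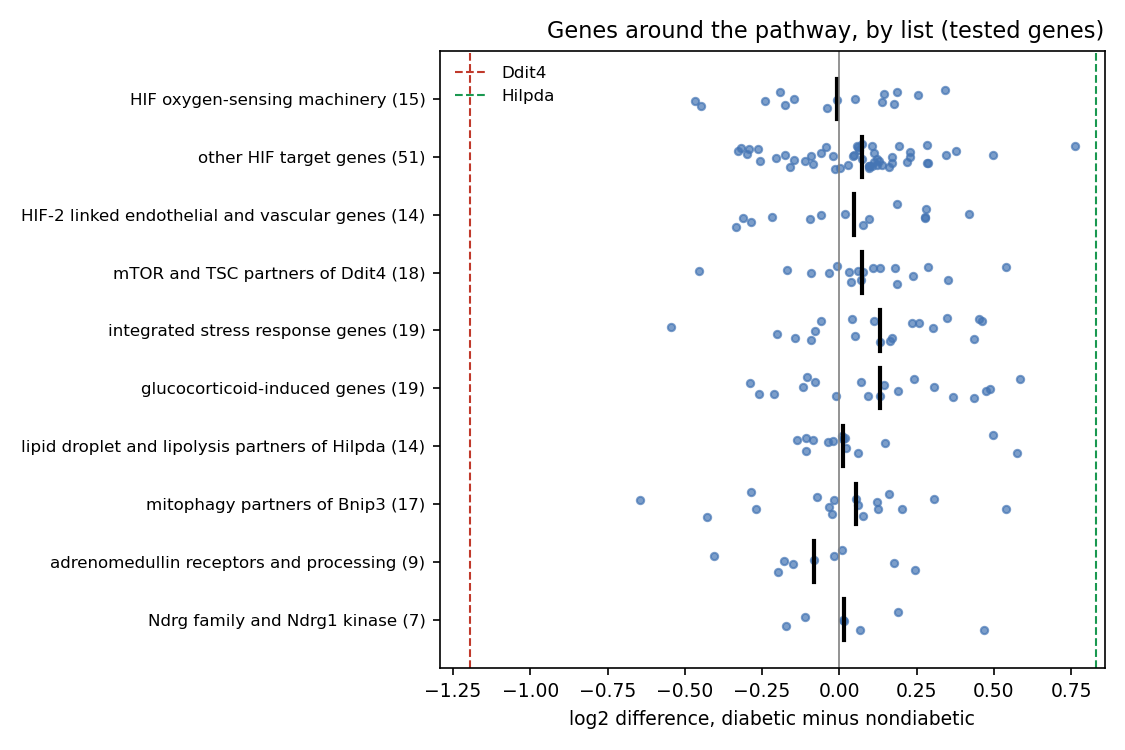
Log2 difference, diabetic minus nondiabetic, of each tested gene of 10 lists around the pathway (blue points, number of genes in parentheses, black bar at the median), with the differences of Ddit4 and Hilpda as dashed lines. List medians run from -0.08 to 0.13, and no listed gene lies beyond Ddit4 (-1.19) or Hilpda (0.83). Few genes do so anywhere: 0.218% of all tested genes had a larger absolute difference than Ddit4 and 0.939% a larger one than Hilpda.

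The genes whose levels followed Ddit4 most closely over the 6 arrays were Lgals9, a galectin, with a Pearson r of 0.985, Sos2, a RAS activator, with 0.977, and Atad5, a replication factor, with 0.973. Their differences were small beside that of Ddit4, at -0.22 (SE 0.16), -0.28 (SE 0.17) and -0.25 (SE 0.17). The member closest to Ddit4 was Epas1, with 0.750. Hilpda was followed most closely by Fbxl19, of the F-box family (r of 0.998), Selenon, an endoplasmic reticulum selenoprotein (0.996), and Nr2f2, the factor of venous endothelial identity (0.987). Nr2f2 stood at 7.56, 7.08 and 6.48 in the diabetic replicates, against 5.38, 6.20 and 5.92 in the nondiabetic ones, a difference of 1.20 (SE 0.31, limma adjusted p = 0.997). The member closest to Hilpda was Egln1, with 0.581. These values pool both groups and so include the difference between them; with each group's mean removed, the members closest to Hilpda were Egln3 (0.723) and Epas1 (0.690), ahead of Ddit4 (0.566) and Egln1 (0.533), and Epas1 was still the closest to Ddit4 (0.649). Over 6 arrays, 96 genes had an r over 0.9 with Ddit4 and 180 with Hilpda, so these likenesses are descriptions of 6 points.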

How the data were processed

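RNA of sorted cells was amplified (Ovation Pico WTA) and hybridised to arrays, per the labels. The authors deposited log2 values per probe set made with RMA, per the submitters' processing notes; its software and version: not given in the sources used here. RMA sets arrays to a common distribution, which would hide a shift of all genes. Of 41345 probe sets, 23521 name 1 gene, 1814 several and 16010 none in the platform annotation supplied. All genes over the dim limit were fitted with limma 3.58.1 in R 4.3.3 (lmFit and eBayes, no covariates), adjusted by Benjamini and Hochberg, threshold 0.05; the script was tested on simulated data. Named genes are the members, the 2 tested genes of smallest p in each pathway list, and the 3 genes and 1 member of highest Pearson r with Ddit4 and with Hilpda. Members and lists were chosen with earlier results of these data known. Precision is limited by the number of arrays. The alternatives were other dim filters, probe set rules, normalizations and variance models, weights per array, the replicate number as a block, and each array left out.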

Additional observations from a re-analysis of the deposited data

How the results depend on the processing

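No member passed the limma test under any of the 16 alternatives in which it was tested, and the lowest adjusted p of a member was 0.470, for Hilpda with array weights. Array weights gave the diabetic replicates 1 to 3 weights of 0.491, 2.96 and 0.672. Hilpda (0.61 to 1.04), Ddit4 (-1.53 to -0.70) and Epas1 (-0.55 to -0.17) kept their sign in all 16. Many of these could not change it: the dim filters, probe set rules, variance model and replicate block left these estimates as they were. For Hilpda and Ddit4, whose groups did not overlap, leaving out an array could not turn the sign either. The brightest probe set of Ndrg1, or the mean of its probe sets, gave -0.50 to -0.07, but with every probe set as its own measurement the second one gave 0.13 (SE 0.25). Hif1a turned to -0.011 with the mean of its probe sets, -0.017 with quantile normalization and -0.0021 with the pan-endothelial mean as a covariate. The same covariate, added after seeing the data, gave 0.89 for Hilpda and -1.10 for Ddit4. Egln3 turned to 0.36 with array weights. With single arrays left out the differences ran from -0.043 to 0.038 for Hif1a, -0.012 to 0.76 for Egln1, -0.43 to 0.51 for Egln3, -0.14 to 0.21 for Bnip3 and -0.25 to 0.24 for Adm. Over all genes, 0 to 1 were called lower with single arrays left out and 0 with the dim filter at the 60th percentile, where Rabggtb fell under the limit; 0 were called higher throughout. At an unadjusted p under 0.05 the split of higher and lower genes was 424 and 142 on all arrays, 291 and 422 without diabetic replicate 1, and 672 and 460 with array weights.

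Across all tested genes no pairing by replicate number was visible: the deviations of same-numbered arrays correlated at -0.04, -0.06 and 0.02. Ddit4, alone of the 9 measured members, had the same order in both groups, highest in replicate 1 and lowest in replicate 3. The megakaryocyte and platelet list was highest in replicate 3 of each group. These values cannot show whether same-numbered samples were handled together. A fit with the replicate block left the difference of Ddit4 at -1.19 (SE 0.26, against 0.42 without the block). Hilpda stayed at 0.83 (SE 0.26, against 0.24 without the block). Both had a limma adjusted p of 0.998 in the block fit, which called the same numbers of genes. Levels near the dim limit, those of Adm and of Egln3 in diabetic replicate 3, may be background.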

Other observations

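Within the list of other HIF targets, the genes with the widest range among the diabetic arrays are given here as values; they were picked after their values were seen. Mxi1, a MYC antagonist, stood at 10.18, 9.03 and 7.42 in diabetic replicates 1 to 3, against 8.68, 8.77 and 9.18 in the nondiabetic replicates. Bhlhe40, a repressor of the clock and hypoxia responses, stood at 8.75, 9.36 and 7.61 in the diabetic replicates, against 8.40, 8.36 and 8.67 in the nondiabetic ones. Pfkfb3, which drives glycolysis in endothelium, stood at 7.12, 6.63 and 6.00 in the diabetic replicates, against 6.53, 6.70 and 6.01 in the nondiabetic ones. All 3 genes had their lowest diabetic value in replicate 3, as did 5 of the 9 measured members and 41.1% of all tested genes. The group means of Mxi1, Bhlhe40 and Pfkfb3 differed by 0.0008, 0.10 and 0.17.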
